A study of Mus musculus with 2 samples.

Results

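The brush border peptidases and structure genes were described in RNA-seq of whole mouse kidney. The 10 members were taken by gene symbol from a table of 20002 genes, and all 10 had a row there. They were 7 genes for enzymes of the cell surface, Mep1a, Mep1b, Dpep1, Ggt1, Anpep, Dpp4 and Mme, here called the peptidases, and 3 structure genes, Vil1, Ezr and Pdzk1. The comparison asked how these genes differed between kidneys of mice given shRNA against Regnase-2, an RNase encoded by Zc3h12b, and control kidneys. In the group named Reg-2 CKO, C57BL/6J mice received AAV9 with shRNA against Regnase-2 through the tail vein at 11 weeks of age. Their kidneys were taken for sequencing at 14 weeks, although another passage of the methods gives a later age. Control mice of the same strain received AAV9 too, described in one passage with a control shRNA and in another as an empty vector.

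The CKO mice were given an shRNA by virus and not a deletion made with Cre. The labels call the knockout specific to the proximal tubule. The methods describe AAV9 as reaching mostly that segment, and the promoter of the shRNA is not stated. The sex of the mice sequenced here and any pooling of these animals are not stated either. Each group had 1 library, so no spread between animals was known, no test between the groups was possible and no p-value is given. The deposited values were whole numbers, none of them under 35 in Control or under 51 in CKO. A floor of 34 and 50 was subtracted and the remainder was treated as reads, an inference from the values, which left 38851231 reads in Control and 43588721 in CKO. To scale the libraries, the CKO reads were multiplied by 0.667, which was the median Control to CKO ratio of the genes, and ratios were taken as CKO to Control on the log2 scale after adding 1. Intervals are 95% Clopper-Pearson intervals, which cover counting error only and not differences between mice. They take the remainders as read numbers, although the authors named the deposited values normalized counts, so they are approximate.

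Zc3h12b, the targeted gene, is the check on the labels. It lies at chrX:95711678-95932637 in GRCm38 and had 47 reads in Control and 59 in the library labelled CKO. The ratio was -0.25 on the log2 scale, with an interval from -0.83 to 0.33. For whole kidney, no change thus lay inside the counting interval and a 2-fold fall lay outside it. The interval does not cover differences between mice. A fall confined to proximal tubule cells could not be measured apart from the other cells. The sign of this ratio also depended on the scaling, and it was 0.16 with equal column totals and 0.43 after scaling to proximal tubule markers. The shRNA strand listed in the methods was compared with the 141767 annotated mouse transcripts, because it defines the CKO group. Without its overhang it reads as follows.
Regnase-2 shRNA, listed strand: accuuagagcuucucuugaua
No annotated transcript held all 21 bases of this strand, as written, reversed, complemented or reverse complemented. As written, its best ungapped match in Zc3h12b covered 13 of the 21 bases, and the best in any gene covered 18. Whether the listed letters are those of the virus used cannot be told from these data.

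The brush border is the layer of densely packed microvilli on the luminal face of proximal tubule cells. It carries peptidases that cut filtered peptides down to amino acids and short peptides, which transporters in the same membrane then take up. Each microvillus holds a core of bundled actin filaments, with proteins that tie this core to the membrane and scaffolds that anchor transporters. Loss or shortening of these microvilli is a known feature of tubular injury, and enzymes of the layer appear in urine when it is shed.

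In the library labelled CKO 7 of the 10 members were lower and 3 were higher than in the Control library. At least 2-fold lower were 3 members, Mep1b, Ggt1 and Mep1a, and no member was 2-fold higher. As background, 17469 genes reached 10 scaled reads in at least 1 library, of which 5.35% were at least 2-fold lower and 13.4% at least 2-fold higher. The members were abundant genes, so they were also set beside the 1884 genes whose mean of both libraries was at least that of the least abundant member. Of these abundant genes 10.2% were 2-fold lower and 1.75% were 2-fold higher. Lower by any amount were 78.4% of the abundant genes and 48.3% of all genes kept, so 7 of 10 was not a larger share than among the abundant genes.

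The median log2 ratio was -0.73 over the 10 members, against 0.02 over all genes kept and -0.35 over the abundant genes. For the 7 peptidases it was -0.87, and for the 3 structure genes -0.73. The members together took 0.590% of all reads in Control and 0.401% in CKO. The peptidases accounted for most of that difference, with 0.401% and 0.230% of reads, while the structure genes had 0.189% and 0.172%. With 1 library per group none of these values has a replicate check.

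The size of each ratio, and the direction of Dpep1, depended on how the libraries were scaled. Making the column totals equal moved the log2 ratio of each member by about 0.42. The number of genes 2-fold lower and 2-fold higher went from 934 and 2334 to 437 and 3784. Mep1a, at -0.93, then no longer reached 2-fold. The ratios below are therefore relative to the median gene of these libraries. Mep1b, Ggt1, Mep1a, Anpep, Pdzk1 and Vil1 were lower in the CKO library under each scaling tried, and Dpp4, Mme and Ezr were higher under each. For Vil1 and Ezr this rests on point values within counting error under some settings. Vil1 was at -0.03 with scaling to proximal tubule markers, and Ezr at 0.02 with the column minimum as floor. Dpep1 was lower under the main scaling and changed sign with the values as deposited and with scaling to proximal tubule markers.

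**Figure D1:**
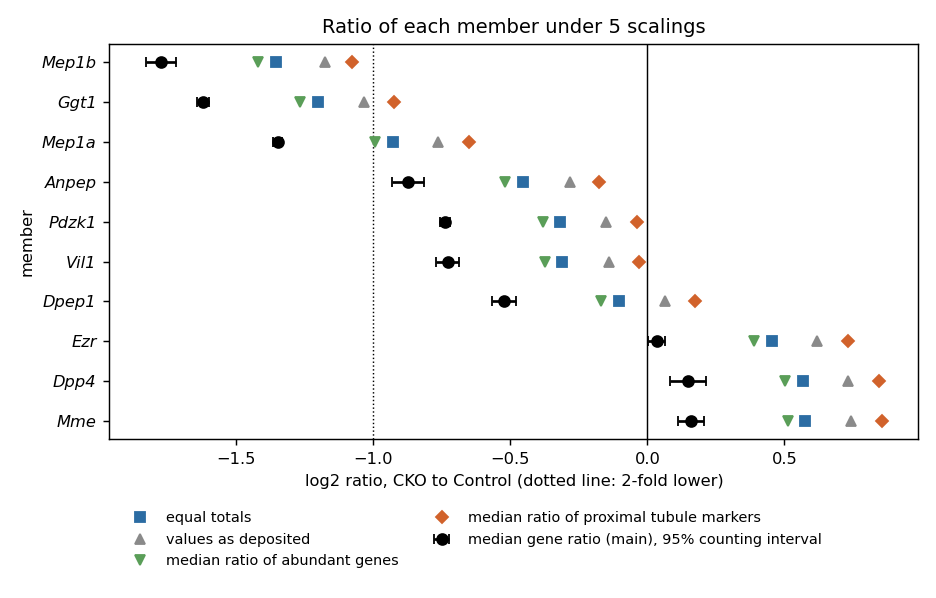
The horizontal axis gives the log2 ratio of CKO to Control for each of the 10 members, as black points with 95% counting intervals under the main scaling and as coloured markers under 4 other scalings. Other scalings shift the members together or nearly so, by an amount that takes Dpep1 across 0 under 2 of the 4.

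The meprins are zinc metalloproteases of the astacin family that cut peptide hormones, cytokines and matrix proteins. The alpha subunit comes from Mep1a and the beta subunit from Mep1b, which also anchors alpha subunits to the membrane. Mep1a (gene 17287, chr17:43474324-43502812, minus strand, 14 exons in its longest transcript) had 75052 reads in Control and 44217 in CKO. After scaling this was a log2 ratio of -1.35, with an interval from -1.37 to -1.33, or 60.7% lower. Mep1b (gene 17288, chr18:21061923-21100199, plus strand, 15 exons) had 8987 and 3940 reads. Its log2 ratio of -1.77, from -1.83 to -1.72, was the lowest of the members and 70.8% below the Control value.

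The alpha subunit gene stood above the beta subunit gene in both libraries. Per kilobase of transcript, Mep1a was 6.43 times Mep1b in the Control library and 8.65 times in the CKO library. This comparison is made within each library and does not depend on the scaling between them. The ratio of the subunit genes differed between the libraries by 0.43 on the log2 scale, with a counting interval from 0.37 to 0.48. The transcripts of both subunits were thus lower in the CKO library under the main scaling, and the beta subunit gene was the lower of the pair by a margin beyond counting error.

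Ggt1 and Dpep1 act one after the other on glutathione outside the cell. Ggt1 encodes gamma-glutamyltransferase, which takes the gamma-glutamyl group off glutathione, and Dpep1 encodes the membrane dipeptidase that splits the remaining cysteinylglycine. Ggt1 (gene 14598, chr10:75561604-75586200, plus strand, 13 exons) had 49199 reads in Control and 24001 in CKO. Its log2 ratio was -1.62, from -1.64 to -1.60, or 67.5% lower. Dpep1 (gene 13479, chr8:123186242-123201812, plus strand, 11 exons) had 8207 and 8567 reads, nearly the same number although the CKO total was larger. Its log2 ratio was -0.52, from -0.57 to -0.48.

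The genes of the 2 steps therefore differed in size of change. Per kilobase, Ggt1 was 6.19 times Dpep1 in the Control library and 2.89 times in the CKO library. The log2 change of that ratio was -1.10, from -1.15 to -1.05 in counting error. No scaling enters this value, since both genes were read in the same library.

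Anpep, Dpp4 and Mme encode type II membrane peptidases that are also used as surface markers of blood cells. Aminopeptidase N, from Anpep, removes amino acids from the start of peptides. Anpep (gene 16790, chr7:79821803-79861059, minus strand, 21 exons) had 5462 reads in Control and 4472 in CKO, a log2 ratio of -0.87, from -0.93 to -0.82. It stood 45.4% below the Control value and did not reach 2-fold.

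Dipeptidyl peptidase 4, from Dpp4, cuts dipeptides off peptides whose penultimate residue is proline or alanine, and it inactivates incretin hormones. Dpp4 (gene 13482, chr2:62330073-62412231, minus strand, 26 exons) had 3108 reads in Control and 5165 in CKO. Its log2 ratio was 0.15, from 0.08 to 0.21. Neprilysin, from Mme, cuts natriuretic peptides, bradykinin and other small peptides, and in the glomerulus it also marks podocytes.

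Mme (gene 17380, chr3:63241537-63386030, plus strand, 23 exons) had 5782 and 9673 reads, a log2 ratio of 0.16, from 0.11 to 0.20. The intervals of Dpp4 and Mme overlapped, so these 2 peptidases cannot be ordered. Both were above the Control value by 1.11-fold and 1.12-fold under the main scaling. The distance between Anpep and Mme did not depend on scaling: Anpep had 0.945 reads for each Mme read in the Control library and 0.462 in the CKO library, a log2 change of -1.03, from -1.10 to -0.96.

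Vil1, Ezr and Pdzk1 stand for the core, the membrane link and the scaffold of the microvillus. Villin, from Vil1, bundles, caps and severs actin filaments. Vil1 (gene 22349, chr1:74409376-74435559, plus strand, 20 exons) had 9472 reads in Control and 8571 in CKO. Its log2 ratio was -0.73, from -0.77 to -0.69. Ezrin, from Ezr, links actin to the membrane and, outside the proximal tubule, is known in podocytes and in other epithelia.

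Ezr (gene 22350, chr17:6738041-6782784, minus strand, 13 exons) had 13716 and 21073 reads, a log2 ratio of 0.03, from 0.00 to 0.07. Its scaled value was close to that of the Control library. Ezr and Vil1 parted within the libraries: Ezr had 1.45 reads for each Vil1 read in the Control library and 2.46 in the CKO library, a log2 change of 0.76, from 0.71 to 0.82. The gene of the membrane link and that of the actin bundler did not move together.

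Pdzk1 encodes a scaffold with PDZ domains that holds phosphate, urate and organic ion transporters at the apical membrane. Pdzk1 (gene 59020, chr3:96829284-96870926, plus strand, 9 exons) had 50357 reads in Control and 45327 in CKO. Its log2 ratio was -0.74, from -0.76 to -0.72. Pdzk1 and Vil1 could not be ordered, since their intervals overlapped and Pdzk1 had 5.32 and 5.29 reads for each Vil1 read in the 2 libraries.

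Ordered by log2 ratio, the members ran from Mep1b through Ggt1, Mep1a, Anpep, Pdzk1, Vil1, Dpep1, Ezr and Dpp4 to Mme. Neighbours in this order were separated beyond counting error except for Pdzk1 with Vil1 and Dpp4 with Mme. Of the 1884 abundant genes, 1.80% had a lower ratio than Mep1b, 2.44% a lower one than Ggt1 and 4.19% a lower one than Mep1a. Pdzk1, Vil1 and Anpep lay nearer the middle, with 21.1%, 21.4% and 14.2% of these genes below them, and Dpep1 had 35.7% below it. Ezr, Dpp4 and Mme were in the upper part, with 81.4%, 87.8% and 88.4% of the abundant genes below them.

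**Figure D2:**
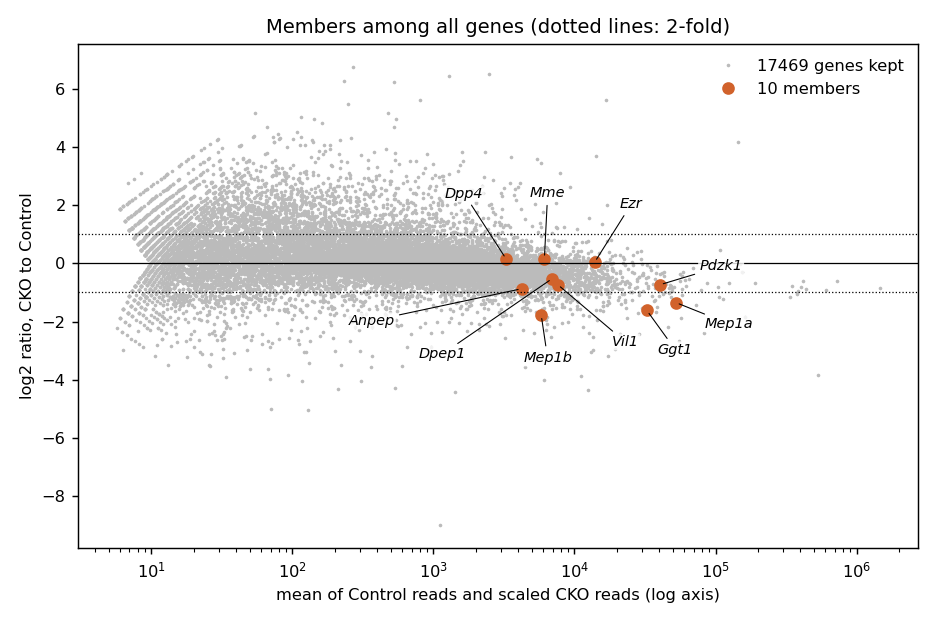
Each grey point is 1 of 17469 genes, with the mean of the Control reads and scaled CKO reads on a log axis and the log2 ratio of CKO to Control on the vertical axis, and the 10 members are marked. Mep1b, Ggt1 and Mep1a lie below the dotted line of 2-fold lower, and the abundant genes on the right lie mostly below 0.

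Levels of different genes were compared as reads per kilobase of the longest annotated protein-coding transcript and per 1000000 reads of the library. On this scale Mep1a was the most abundant member in the Control library, at 651, and it ranked 56 among the 14844 genes with a transcript length. Ggt1 followed at 584 and Pdzk1 at 478. The next members were much lower: Ezr was at 112, Mep1b at 101, Dpep1 at 94.5 and Vil1 at 78.0. Anpep at 37.0, Mme at 18.5 and Dpp4 at 15.2 had the lowest levels, and on this length each neighbour differed beyond its Poisson interval. The order depends on the length used: with coding length Pdzk1 stood above Ggt1, Dpep1 above Mep1b and Mme above Anpep.

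The order was different in the CKO library, where Pdzk1 led at 384, ahead of Mep1a at 342 and Ggt1 at 254. Ezr came next at 153, then Dpep1 at 87.9 and Vil1 at 62.9. Mep1b had moved from the fifth place to the seventh, at 39.5. Mme at 27.6 and Anpep at 27.0 had overlapping intervals, and Dpp4 was lowest at 22.5. These levels are shares of each library's own reads, so their differences between libraries are those of equal totals.

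**Figure D3:**
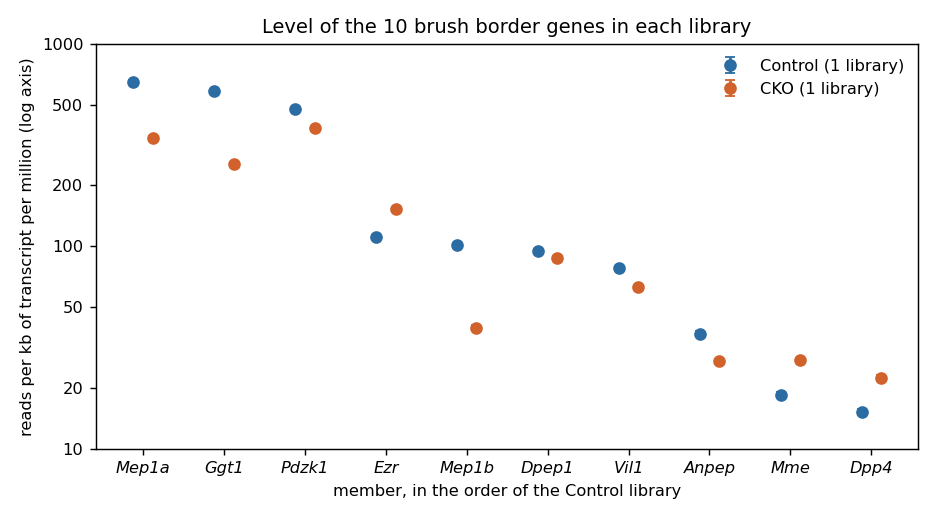
Points give the level of each member in the Control and CKO libraries as reads per kilobase of transcript per 1000000 reads on a log axis, with 95% Poisson bars that are mostly smaller than the points. Mep1a, Ggt1 and Pdzk1 have the highest levels in both libraries, and Mep1b shows the widest gap between them.

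Several transcription factors known for proximal tubule identity, among them the HNF4 factors, act through short DNA motifs. Of these, 5 genes were read as a list, Hnf4a, Hnf4g, Cebpa, Ppara and Maf. The list had a median log2 ratio of -0.54 and no gene changed 2-fold, but the median was 0.16 with scaling to proximal tubule markers, so no direction is given for it. Hnf4a was lowest, with 38137 reads in Control and 28756 in CKO and a log2 ratio of -0.99, and Cebpa was highest at 0.34. The promoters of the members, whatever their direction, were searched for the HNF4 motif. RefSeq windows on GRCm38, from 250 bases before to 50 bases after each start, matched 9 of the 10 members with 15 windows, and Mep1b was not among them.

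The HNF4 motif CAAAGTCCA, read on both strands, was found in 1 of the 15 windows, against 0.475% of all 32851 windows. It lay in a window of Pdzk1, beginning at base 15 counted from the start, at chr3:96830079-96830087 on the plus strand. It is shown in capitals within 29 bases at chr3:96830069-96830097, because Pdzk1 was the only one of the 9 members with the full motif.
Pdzk1: aatctttgtcCAAAGTCCAgtgagttcca
The shorter CAAAG, which is part of that motif, was in 11 of the 15 windows and in 53.9% of all windows. A match describes letters in the reference and says nothing of binding in these kidneys.

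Other peptidases and hydrolases of the same membrane, with the trafficking protein collectrin, formed a list of 12 genes. Its median log2 ratio was -0.71, close to that of the members, with 4 genes at least 2-fold lower and none 2-fold higher. The median was -0.83 with a minimum of 50 scaled reads in 1 library, which left out Naaladl1 at 23 and 24 reads. Acy3, an aminoacylase, was lowest, with 75411 reads in Control and 24580 in CKO and a log2 ratio of -2.20. Ace, the angiotensin-converting enzyme, had 10069 and 4188 reads, giving a log2 ratio of -1.85. Treh, which encodes the brush border disaccharidase trehalase, followed at -1.37, and Nt5e, the ecto-nucleotidase CD73, at -1.33. With equal totals the median was -0.29 and Acy3 and Ace alone stayed 2-fold lower, so the calls of Treh and Nt5e rest on the scaling. Folh1, a carboxypeptidase, was highest at 0.50, with 4722 and 10024 reads. The peptidases of this membrane thus spanned both directions outside the members as well.

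Genes of the microvillus core, its cross-linkers and the links between microvilli were counted apart. Of 20 genes 19 had a row and Myo1a was not analysed here. Under the main scaling none of the 19 changed 2-fold in either direction, while with equal totals Pls3 and Msn passed 2-fold higher. The list's median log2 ratio under the main scaling was -0.35, equal to that of the abundant genes at 2 decimals. Ush1c, a scaffold of the links between microvillus tips, was lowest at -0.83, and Msn, which encodes the ezrin relative moesin, was highest at 0.74. The median of this list changed sign under other scalings, being 0.07 with equal totals, so no direction is given for it. Vil1 at -0.73 lay near the lower end of this list and Ezr at 0.03 in its upper part.

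The 10 transporters and receptors known to bind PDZK1 had a median log2 ratio of -0.78, beside -0.74 for Pdzk1 itself. Under the main scaling 3 were at least 2-fold lower and none 2-fold higher. With equal totals the median was -0.36, only Slc22a12 stayed 2-fold lower and Scarb1 passed 2-fold higher. Slc22a12, the urate transporter URAT1, was lowest, with 57635 reads in Control and 27095 in CKO and a log2 ratio of -1.67. Slc34a1, the main phosphate transporter of the brush border, had 147064 and 98124 reads, giving a log2 ratio of -1.17, and Slc22a5, a carnitine transporter, was at -1.06. Scarb1, a lipoprotein receptor, was highest at 0.75 with 362 and 914 reads. The scaffold gene thus had a ratio near the middle of its partners.

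Around Ggt1, 9 genes for glutathione synthesis and breakdown had a median log2 ratio of -0.97, with 4 at least 2-fold lower and 1 at least 2-fold higher. Ggct, which acts on the gamma-glutamyl amino acids that Ggt1 forms, had 909 and 308 reads, giving a log2 ratio of -2.14. Cndp2, a cytosolic dipeptidase, had 51224 and 25570 reads and was at -1.59, while the aminopeptidase gene Lap3 was at -1.30 and the glutathione synthetase gene Gss at -1.10. Equal totals moved the median to -0.55 and left only Ggct and Cndp2 at least 2-fold lower. Chac1, which breaks down glutathione inside cells, was the exception at 1.45, from only 15 and 64 reads and with an interval from 0.68 to 2.43.

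Peptide transporters and the peptidases that act after uptake formed a list of 10 genes, of which Slc15a2, Cndp2, Lap3 and others also stood on another list. The median log2 ratio was -0.76, with 4 genes at least 2-fold lower and none 2-fold higher. Slc15a1, the low-affinity peptide transporter, was lowest at -1.63 from 68 and 32 reads. Pepd, which splits dipeptides that end in proline, had 11839 and 8820 reads and was at -1.01, and Npepps, a cytosolic aminopeptidase, was highest at 0.01. Only Slc15a1 and Cndp2 stayed 2-fold lower with equal totals, at a median of -0.34.

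Near relatives of the members in the same gene families did not share the members' median. Of 37 such genes 29 had a row and 28 passed the minimum of 10 scaled reads. Their median log2 ratio of 0.09 was near the 0.02 of all genes kept. At least 2-fold higher were 5 of them, and 1 was at least 2-fold lower, beside 13.4% and 5.35% of all genes kept. Equal totals gave a median of 0.51 and 9 at least 2-fold higher, with Ggt5, Erap1, Gsn and Msn added. Vill, a villin-like gene, was lowest, with 3075 reads in Control and 1462 in CKO and a log2 ratio of -1.66. Other relatives of villin were higher in the CKO library: Capg had 419 and 2629 reads, giving a log2 ratio of 2.06, and Scin had 1470 and 5949 reads and 1.43.

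Avil, advillin, was highest at 2.78, but from 4 and 50 reads. Bmp1, a relative of the meprins that processes procollagen, had 343 and 1141 reads, giving a log2 ratio of 1.15. Dpep2, a dipeptidase related to Dpep1, had 10 and 91 reads, giving a log2 ratio of 2.49. Dpep3, Lvrn, Trhde, Fap, Dpp10, Mmel1, Ece2 and Astl were not analysed here.

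**Figure D4:**
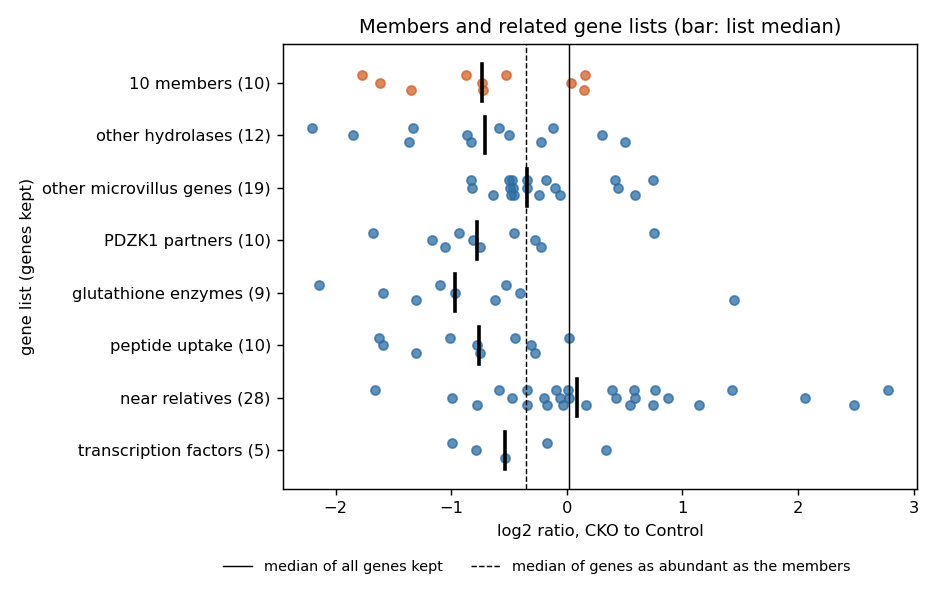
Each point is the log2 ratio of CKO to Control for 1 gene of the list named on the vertical axis, bars are list medians, and vertical lines give the medians of all genes kept and of the abundant genes. The other hydrolases, PDZK1 partners, glutathione enzymes and peptide uptake genes have medians between -0.97 and -0.71, near the -0.73 of the members. The near relatives have a median of 0.09, near the 0.02 of all genes kept.

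Markers of kidney cell types were read beside the members, because fewer proximal tubule cells and less RNA of a gene per cell cannot be told apart in whole kidney. Proximal tubule markers outside the members were present in both libraries, with 803802 summed reads in Control and 655902 in CKO, and Slc27a2 was the most abundant in both. All 15 had a row, 4 were at least 2-fold lower, none was 2-fold higher and the median log2 ratio was -0.70, close to the -0.73 of the members. Slc22a6, an organic anion transporter, was lowest at -1.63 with 50329 and 24475 reads, and Slc5a12, a lactate transporter, was highest at 0.41. The others at least 2-fold lower were Slc27a2 at -1.23, Slc34a1 at -1.17 and Miox at -1.05. These 3 lost the call with equal totals, which left Slc22a6 alone and a median of -0.28.

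When the CKO reads were scaled so that these markers kept a median ratio of 1, a choice made after seeing the data, the members' median log2 ratio was -0.04. On that scale Mep1b was at -1.08, Ggt1 at -0.92 and Mep1a at -0.65, while Anpep was at -0.18. Pdzk1 and Vil1 were at -0.04 and -0.03. Dpep1 was at 0.17, Ezr at 0.73, Dpp4 at 0.84 and Mme at 0.85. The factor shifts all members alike, so their order is that of the main scaling. Of the 15 markers 0 were lower than Mep1b, and 1 was lower than Mep1a, namely Slc22a6, whose interval overlapped that of Ggt1. The 15 hold none of the S3 segment markers read below. Of those, Atp11a, Acy3, Slc7a13, Cyp7b1 and Slc22a7 were lower than Mep1b, from -1.87 to -4.42 under the main scaling. The S3 markers Slc5a1 and Slc7a12 were higher than Mep1b.

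Markers of the segments of the proximal tubule were read as 2 short lists, and the difference between the lists was not tested. The 8 markers of the S1 and S2 segments had 194620 and 200220 summed reads and a median log2 ratio of -0.37, with 1 at least 2-fold lower, Slc22a6, and none 2-fold higher. That median was 0.05 with equal totals, so no direction is given for it. The 7 markers of the S3 segment had 215518 and 76980 summed reads and a median of -2.20, with 5 at least 2-fold lower and 1 at least 2-fold higher, counts that equal totals left unchanged. Their most abundant gene was Atp11a in both libraries, at a log2 ratio of -1.87. Slc22a7 was lowest at -4.42 and Cyp7b1 and Slc7a13 were at -3.99 and -2.95, whereas Slc5a1 was at -0.05 and Slc7a12 was highest at 2.53, with 537 and 4668 reads. Acy3 belonged both to this list and to that of the hydrolases. The part of segment makeup in the members' ratios was not tested.

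Cyp7b1 and Slc7a13 are also known to be higher in male than in female mouse kidney. For this reason 9 genes with that bias and 4 Y-linked genes were read after the data had been seen. The Y-linked genes Ddx3y, Eif2s3y, Kdm5d and Uty had 5736 summed reads in Control and 9715 in CKO, with Eif2s3y most abundant, and their median log2 ratio was 0.22. Reads from the Y chromosome were thus present in both libraries. The 9 genes Kap, Slco1a1, Cyp4b1, Cyp2j13, Cyp4a12a, Cyp2e1, Slc7a13, Cyp7b1 and Akr1c21 had a median of -2.68, and 8 were at least 2-fold lower. Kap, an androgen-regulated gene of the proximal tubule, was the most abundant of them, with 987520 and 104163 reads, giving a log2 ratio of -3.83. The part of this difference in the members' ratios was not tested.

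Injured tubule markers were higher in the library labelled CKO, with 26332 summed reads in Control and 504434 in CKO. Of 12 markers 11 had a row, 10 of the 11 were at least 2-fold higher and the median log2 ratio was 3.67. Lcn2 was highest at 6.45, with 28 and 3797 reads, and Krt8 was lowest at 0.45. Spp1 was the most abundant, with 15360 and 412220 reads, giving a log2 ratio of 4.16, and Havcr1 had 1639 and 21332 reads and 3.12. The remaining 2-fold higher markers were Krt19 at 4.69, Cd44 at 3.93, Vcam1 at 3.82, Clu at 3.67, Sox9 at 3.05, Krt18 at 2.04 and Vim at 1.56. Krt20 was not analysed here.

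Markers of immune and connective tissue cells were higher as well. The 8 macrophage markers had 3647 and 23554 summed reads and a median log2 ratio of 2.63, with 7 at least 2-fold higher. Csf1r was the most abundant in the Control library and lowest in ratio, at 0.51, and Lyz2 was the most abundant in the CKO library and highest in ratio, at 3.66. The others were Itgam at 3.05, C1qa at 2.99, C1qb at 2.67, Cd14 at 2.58, Adgre1 at 2.55 and Cd68 at 2.17. The 6 markers of fibroblasts and pericytes had 5655 and 27257 summed reads and a median of 1.69, and 5 were at least 2-fold higher. Among these Col1a1 was at 2.65, Col3a1 at 2.56, Acta2 at 1.70, Dcn at 1.69 and Pdgfra at 1.04, and Pdgfrb was lowest at 0.48.

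These cells bear on the members known outside the tubule, since Anpep, Dpp4 and Mme are also transcribed in cells of the blood and connective tissue. T cell markers had few reads, 83 and 469 summed over the 6 of 7 genes with a row, with a median log2 ratio of 1.80, all 6 at least 2-fold higher and Lck most abundant at 28 and 160 reads. Their ratios ran from 1.27 for Cd2 to 2.22 for Cd3g, and Lck was at 1.89. Neutrophil markers had 42 and 260 summed reads over 3 of 5 genes, with a median of 1.64, from 0.77 for S100a8 to 2.37 for Csf3r, the most abundant. Of 3 B cell markers only Cd79b had a row, with 23 and 40 reads, giving a log2 ratio of 0.21. Cd3d, Cxcr2, Retnlg, Cd79a and Ms4a1 were not analysed here.

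Other resident cells differed less. The 5 podocyte markers, a cell type in which Mme and Ezr are also known, had 6931 and 11810 summed reads, a median log2 ratio of 0.08 and none changed 2-fold, from Nphs1 at -0.20 to Cdkn1c at 0.99, with Podxl most abundant. Thick ascending limb markers had a median of -0.04 over 5 genes and 167966 and 276359 summed reads, from Egf at -0.81 to Cldn16 at 0.83, and Umod was the most abundant. Collecting duct markers had a median of 0.41 over 8 genes and 17211 and 34448 summed reads, from Slc4a1 at -0.27 to Aqp2 at 0.79, which was also the most abundant. Endothelial markers had a median of -0.08 over 6 genes and 12680 and 17323 summed reads, from Kdr at -0.67 to Emcn at 0.14, with Plvap the most abundant. None of the genes on these 4 lists changed 2-fold under the main scaling, but with equal totals Cdkn1c, Cldn16, Aqp2, Scnn1b and Scnn1g were at least 2-fold higher. The thick limb and endothelial medians then changed sign, to 0.37 and 0.34, and the podocyte and collecting duct medians rose to 0.50 and 0.83. How far each cell type contributed to the ratios of Ezr, Dpp4, Mme or any other member was not tested.

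**Figure D5:**
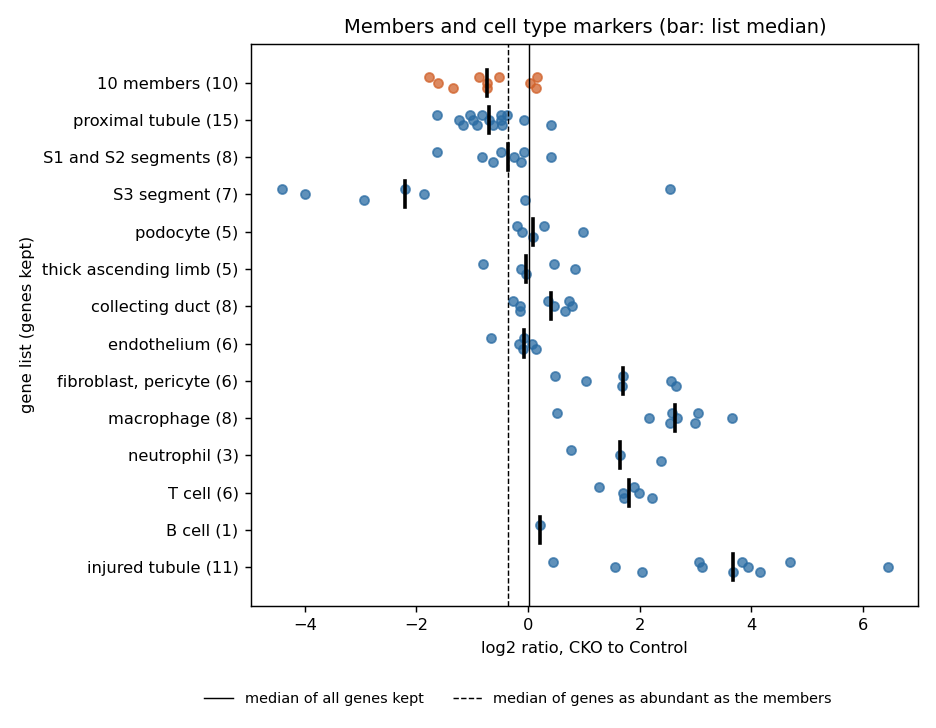
Each point is the log2 ratio of CKO to Control for 1 marker of the cell type on the vertical axis, bars are list medians, and vertical lines give the medians of all genes kept and of the abundant genes. The members and the proximal tubule markers lie together at medians of -0.73 and -0.70, while the macrophage and injured tubule lists have medians of 2.63 and 3.67.

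Genes with a ratio like that of the members were named by distance from their median. Among 5372 genes with at least 1000 scaled reads in both libraries, the nearest were Nme2, Rgl1, Rbpms2, Ptges2 and Pafah2, all at a log2 ratio of -0.73. Nme2 had 23008 reads in Control and 20763 in CKO, and Pafah2 had 4035 and 3645. This likeness rests on 1 ratio between 2 libraries and tells nothing of shared control.

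Exons of 4 members share bases with a gene on the opposite strand in the GENCODE M21 annotation. The library kit keeps the strand, but whether the counting used it is not stated, so reads from the shared bases cannot be assigned with certainty. Pdzk1 shares 1333 bases with Gpr89, which had 1191 and 1489 reads, and 81 and 68 bases with 4930442L01Rik and Cd160. Vil1 shares 49 bases with Usp37, Ezr shares 4 with Sytl3, and Dpp4 shares 232 with Gm13561. Against the 50357 and 45327 reads of Pdzk1, those of Gpr89 were few in both libraries.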

How the data were processed

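RNA from left kidneys was sequenced by the authors after TruSeq Stranded mRNA preparation. Per the methods and the submitters' processing notes, the authors aligned reads to mm10 with STAR 2.7.3a, counted with HTSeq and normalized with DESeq2; the FPKM made with Cufflinks 2.2.1 was not used here. What was deposited is a score without a standard unit, whole numbers that the authors named normalized counts. Floors were subtracted and the CKO column was scaled by the median gene ratio. The fold threshold was 2, over genes that reached 10 scaled reads in either library. Named genes were the members, Zc3h12b, the highest and lowest gene of each list, list genes changed 2-fold with at least 100 scaled reads, and the 5 nearest genes. Others were named after their values were seen. Some genes of the lists are not reported here and were left out of list counts and medians. Members and lists were chosen with earlier results of these data known. Alternatives were other scalings, floors, pseudocounts, thresholds, filters and lengths. Lengths and coordinates came from GENCODE M21, promoters from RefSeq, both on GRCm38. The steps were tested on simulated data. Scripts ran in Python 3.11.15 with scipy 1.17.1, pandas 2.3.3, numpy 2.4.6 and matplotlib 3.10.9.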

Additional observations from a re-analysis of the deposited data

How the results depend on the processing

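No paired analysis was possible because there was 1 library per group. Log2 medians of the 10 members, the 7 peptidases and the 3 structure genes, in this order, were -0.31, -0.45 and -0.31 with equal totals. They were -0.44, -0.58 and -0.44 with equal totals without the 20 highest genes, and -0.68, -0.82 and -0.67 with the median ratio of genes with at least 100 reads in both libraries. With the values as deposited they were -0.15, -0.28 and -0.14. With scalings chosen after seeing the data they were -0.38, -0.52 and -0.37 (abundant genes) and -0.036, -0.18 and -0.032 (proximal tubule markers). Other alternatives moved them by no more than counting error.

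The number of members at least 2-fold lower was 3 under the main setting, 1 with proximal tubule scaling, 6 at a 1.5-fold and 0 at a 4-fold threshold, and 2 or 3 under each other setting. Dpep1 changed sign to 0.064 as deposited and 0.17 with proximal tubule scaling. The transcription factor list changed sign to 0.084 and 0.16 under the same settings. The microvillus list went to 0.070 with equal totals, 0.0056 with abundant genes, 0.24 as deposited and 0.35 with proximal tubule scaling. With proximal tubule scaling the glutathione, hydrolase, peptide uptake and PDZK1 partner medians were -0.27, -0.014, -0.066 and -0.084. A minimum of 50 scaled reads in 1 library moved the glutathione and hydrolase medians to -1.03 and -0.83.

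Against 934 genes 2-fold lower and 2334 higher, there were 537 and 3256 without the 20 highest genes, 131 and 3574 as deposited, 476 and 3498 with abundant genes, and 276 and 5527 with proximal tubule scaling. These scalings moved the median of all genes by 0.29, 0.57, 0.35 and 0.69. With coding length, 4 members kept their place in the level order of the Control library and 5 in that of the CKO library, and without length correction 3 and 6 did. The values as deposited changed floor and scaling together, and the cause of that change was not tested. Each other scaling multiplies 1 library by another factor, so it leaves the order of the members as it was. Low read numbers gave wide counting intervals for Zc3h12b and for listed genes such as Avil, S100a8, Cd3e and Naaladl1.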
